A study of Homo sapiens with 8 samples.

Results

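The solute carrier (SLC) genes were chosen by symbol, as every gene in the logAPAR tables whose name began with SLC, a family number, a letter and a member number, antisense genes excluded. There were 122 such genes among the 7504 genes of both tables together, and 84 of them were among the 5838 genes measured in both comparisons. By family number, 62 belonged to families found mainly in the plasma membrane, 32 to families found mainly in organelle membranes and 22 to SLC25, the mitochondrial carrier family. The other 6 matched the pattern by name but encode no carrier: SLC2A4RG, SLC4A1AP, SLC7A6OS, SLC9A3R1, SLC9A3R2 and the pseudogene SLC25A51P4. The split follows the family and not the single protein, and some members sit elsewhere than their family, such as SLC39A7 in the endoplasmic reticulum and Golgi.

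Messenger RNA 3′ ends were sequenced with QuantSeq libraries in MDA-MB-231, a triple-negative human breast cancer line that is poorly metastatic, and in MDA-LM2, the derivative of it that metastasizes to the lung. They were also sequenced in MDA-MB-231 cells carrying the CRISPR interference machinery with either a control guide (sgControl) or a guide against HNRNPC (sgHNRNPC), an RNA-binding protein of the nucleus that binds runs of uridine. Each of the 4 groups had 2 replicates, so MDA-LM2 stands for a single derived line and sgHNRNPC for a knockdown, not a deletion. The first question was which poly(A) sites differ in use between metastatic and parental cells, and the second was which differ when HNRNPC is reduced. No sample was shared between the 2 comparisons.

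Most human genes can end their mRNA at more than one poly(A) site, and the choice sets the length of the 3′ untranslated region or, where a site lies in an intron, the end of the protein. Solute carriers move nutrients, ions, metals and metabolites across membranes, and tumour cells depend on several of them for glucose, glutamine and cystine. Several carriers, the iron importer SLC11A2 among them, are known to have alternative mRNA ends that differ in their regulatory elements.

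The unit of measurement was logAPAR, the logarithm of the change in the ratio of proximal to distal site use for one pair of sites of a gene, where a negative value means relatively more use of the distal site. The base of the logarithm was not named in the sources used here, so values are given as they stand and no fold is derived. The tables hold 1 value for each pair and comparison and none for a single sample, so sequencing depth and replicate spread are unknown for every gene. The standard error (SE) printed beside a value is the one implied by the value and its raw P value, and the 95% interval follows from it. It comes from a regression on read counts. Variation between the 2 replicates may therefore not enter the SE, the intervals or the tests of differences between the comparisons. P values of single pairs are those of the deposited APAlog regression, called raw before and adjusted after the deposited correction for multiple testing. With 2 samples against 2 an exact permutation test could not have gone below 0.333, and none could be run without single-sample values. The study's methods describe its sequencing experiments as biological duplicates. Neither HNRNPC expression nor markers of the cell lines can be read from these tables.

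SLC genes were read with limited precision. In the MDA-LM2 table, 99 SLC genes had 346 pairs from 284 sites, of which 139 were named by a transcript end and 145 by a genomic position. A gene had between 2 and 9 sites, and 54 genes (54.5%, against 47.1% of all genes) had only 2. The sgHNRNPC table held 107 SLC genes with 464 pairs from 328 sites, and 57 genes (53.3%, against 45.0%) had only 2 sites. The median implied SE of a pair was 0.906 for SLC genes in MDA-LM2, against 0.746 for all genes, and 1.10 against 1.04 in sgHNRNPC. For the outermost pair of sites of each SLC gene, the median SE was 0.866 in MDA-LM2 and 1.05 in sgHNRNPC. The 95% interval of the median SLC gene therefore reached 1.70 to either side in MDA-LM2 and 2.06 in sgHNRNPC.

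The SLC gene with the lowest P value was SLC35E1, an orphan member of the nucleotide sugar transporter family SLC35, which lies on chromosome 19 at chr19:16549831-16572415 of GRCh38, minus strand. It was also the one SLC gene past a raw P value of 0.01 in either comparison. In MDA-LM2 the table gave it 4 sites. The most proximal was a genomic position, and the other three were the ends of ENST00000596387.1 (position 16551759, a transcript with no defined coding sequence), ENST00000409648.8 (position 16550850, a transcript annotated for nonsense-mediated decay) and ENST00000595753.6 (position 16549837, the protein-coding end). The last 30 bases before each of these 3 ends, taken from GENCODE 44 and written 5′ to 3′ on the transcript strand, are shown because the shift lies between them. Capitals mark a poly(A) signal, AATAAA or ATTAAA.
ENST00000596387.1: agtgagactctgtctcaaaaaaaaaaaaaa
ENST00000409648.8: ataaatgggctatttaattctgtatataaa
ENST00000595753.6: taccaaaAATAAAtgatggtttccagggaa

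Of the 3 SLC35E1 ends, the coding end alone held a signal in these bases, with the first base of the hexamer 23 bases from the end. The end of ENST00000596387.1 closed on a run of A, and 8 of the next 10 genomic bases were also A, against 4 of 10 at each of the other ends. Oligo(dT) priming inside such a run is a known property of 3′-end libraries, and its part in the values was not tested.

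Between the decay-type end and the coding end, which lie 1013 nt apart, logAPAR was −1.06 ± 0.325 (SE) in MDA-LM2, with a 95% interval of −1.70 to −0.43 and a raw P value of 0.00104. After Benjamini–Hochberg adjustment over all pairs of the table by APAlog the P value was 0.555. The pair of the genomic site and the coding end gave −0.65 ± 0.262 (raw P value of 0.0123), and the pair of the A-rich end and the coding end gave −0.60 ± 0.253 (raw P value of 0.0174). All 3 pairs that ended on the coding site were thus negative. Pairs that ended on the decay-type site were positive, at 0.41 ± 0.277 from the genomic site and 0.46 ± 0.269 from the A-rich end, and neither reached a raw P value of 0.05. The genomic site and the A-rich end gave −0.05 ± 0.188 against each other. Values of one gene add up along its sites, so these 6 pairs are not 6 independent measurements.

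In sgHNRNPC the same decay-type to coding pair had a logAPAR of 0.24 ± 0.339 (raw P value of 0.484), and all 10 SLC35E1 pairs of that table had raw P values of 0.198 or more. The difference between the comparisons for this pair was −1.30 ± 0.469 (interval −2.22 to −0.38, raw P value of 0.00554), and the adjusted P value over all pairs shared by the tables was 0.999943. Of the other SLC35E1 pairs, the A-rich end against the decay-type end differed by 0.75 ± 0.350 (interval 0.07 to 1.44, raw P value of 0.0316, adjusted P value of 0.999943). The difference intervals of the remaining pairs with the decay-type or coding end include 0, as for the genomic site against the coding end at −0.76 ± 0.454 (−1.65 to 0.13). The plot of SLC35E1 pairs gives the values of both comparisons side by side.

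**Figure D1:**
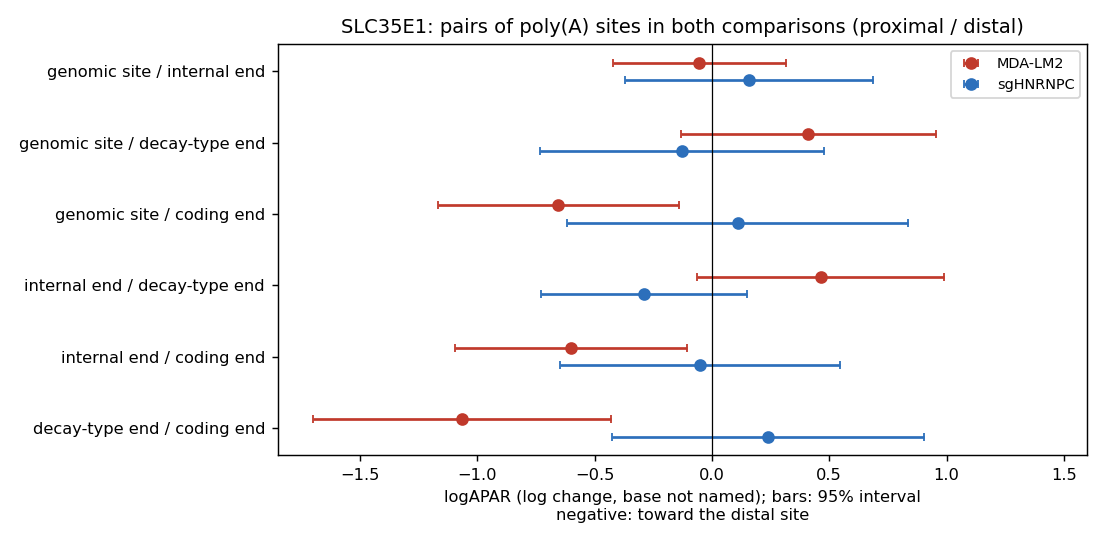
Each row is a pair of SLC35E1 poly(A) sites present in both comparisons, the x axis is logAPAR (a log change of unnamed base) and bars are 95% intervals. "Internal end" is ENST00000596387.1, "decay-type end" ENST00000409648.8 and "coding end" ENST00000595753.6; in MDA-LM2 (red) the 3 pairs ending on the coding end lie wholly below 0, while all 6 sgHNRNPC intervals (blue) include 0.

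SLC35E1 made up the whole count at the study's threshold in MDA-LM2. It was 1 of 99 SLC genes (1.01%) with a pair at a raw P value under 0.01, while 2.72% of all genes had one. In sgHNRNPC, 0 of 107 SLC genes passed in APAlog at that threshold, against 1.62% of all genes. At a raw P value under 0.05 the SLC count was 6 of 99 (6.06%) in MDA-LM2, below the 11.0% of all genes, and 5 of 107 (4.67%) in sgHNRNPC, near the 4.51% of all genes. The distal site was favoured in 3 of those 6 genes in MDA-LM2 (3.03% of the 99 SLC genes, against 5.87% of all genes). It was favoured in 4 of those 5 in sgHNRNPC (3.74% of the 107, against 3.47%). The lowest P value is taken over all pairs of a gene, and SLC genes had a median of 1 pair in each comparison, against 3 for all genes. On the outermost pair of each gene alone, 4 SLC genes in MDA-LM2 had a raw P value under 0.05 (4.04%, against 4.48% of all genes). The count was 2 in sgHNRNPC (1.87%, against 1.69%). No SLC pair had an adjusted P value under 0.05, and the lowest were 0.555 in MDA-LM2 and 1 in sgHNRNPC. The genes at a raw P value between 0.01 and 0.05 are described next by role. They were picked after their values were seen, and each pair at that level has an adjusted P value of 0.974 in MDA-LM2 or of 1 in sgHNRNPC.

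**Figure D2:**
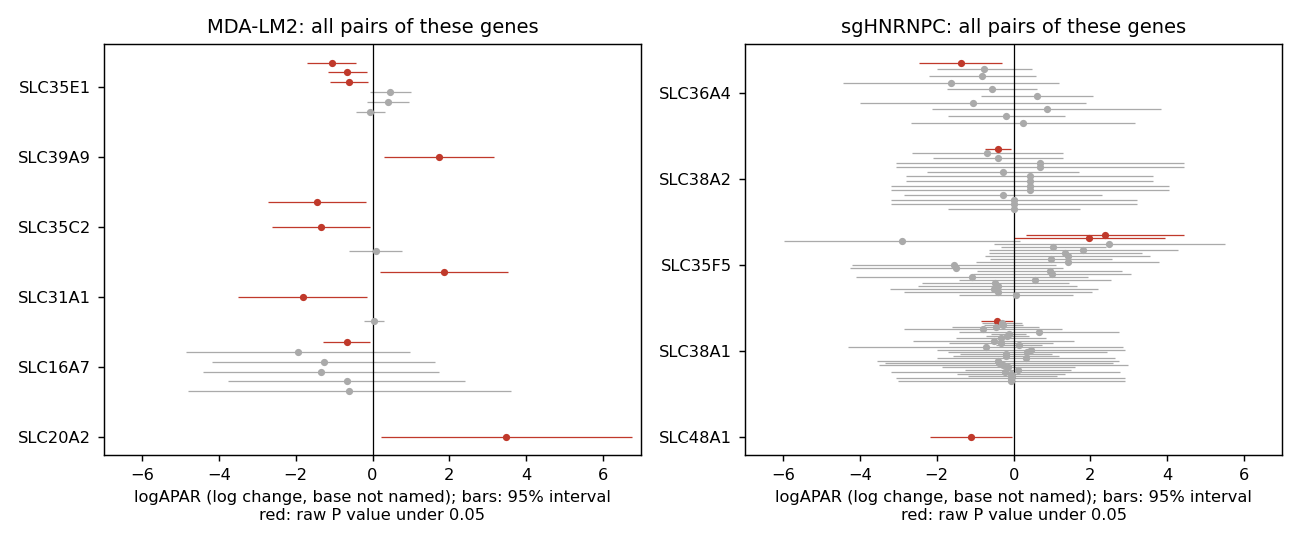
All pairs of poly(A) sites of the SLC genes with at least 1 pair at a raw P value under 0.05 in that comparison (red, other pairs grey); the x axis is logAPAR with 95% intervals. For SLC31A1 the 2 red pairs lie on opposite sides of 0, and for SLC38A1 and SLC38A2 1 red pair stands among many wide grey ones.

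Nucleotide sugar transporters and the related orphan members of family SLC35 had a negative logAPAR of the outermost pair in 9 of 14 genes in MDA-LM2 (median −0.10) and in 11 of 19 in sgHNRNPC (median −0.06). Over all genes 52.3% were negative in MDA-LM2 and 57.8% in sgHNRNPC. Neither this group nor any role group below was tested against these shares. Beside SLC35E1, SLC35C2, a Golgi member tied to GDP-fucose supply, had 2 of 3 pairs at a raw P value under 0.05 in MDA-LM2. Its proximal and middle genomic sites, 451 nt apart, gave 0.08 ± 0.348 against each other. Against the most distal site they gave −1.35 ± 0.651 (raw P value of 0.0376) and −1.44 ± 0.650 (raw P value of 0.0273). In sgHNRNPC the same 2 pairs were at −0.06 ± 0.708 and 0.01 ± 0.777.

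SLC35F5 was the one SLC gene that went toward a proximal site at a raw P value under 0.05 in sgHNRNPC. Its pair with the lowest P value had a logAPAR of 2.38 (raw P value of 0.0238) and its outermost pair one of 1.98 ± 1.00 (raw P value of 0.0489), and 13 of its 21 pairs were positive. In MDA-LM2 the pair with the lowest sgHNRNPC P value was at 0.44 ± 1.19 and the outermost pair at −0.16 ± 1.62, and no pair of the gene was below a raw P value of 0.406. The highest outermost value of the family in MDA-LM2 belonged to SLC35B4 (1.09 ± 0.826) and the lowest to SLC35F6 (−1.81 ± 0.980), and both intervals include 0. SLC35E3, one of the 5 most precise SLC genes in MDA-LM2, was at −0.02 ± 0.242 for its outermost pair (interval −0.50 to 0.45), and the same pair was at −0.01 ± 0.685 in sgHNRNPC.

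Members of families that mainly carry amino acids, with SLC66A2 of an organelle family and the nucleobase carrier SLC43A3 among them, had negative outermost logAPAR in 11 of 19 genes in MDA-LM2 (median −0.22) and in 12 of 18 in sgHNRNPC (median −0.29). In MDA-LM2 0 of the 19 had a pair at a raw P value under 0.05 in APAlog, which is little to set against 11.0% of all genes in a group this small. In sgHNRNPC 3 of the 18 did, all toward the distal site. Of all genes 4.51% passed in either direction and 3.47% toward the distal site. With 3 genes picked out after their values were seen, the count describes them and was not tested. They were SLC36A4, a carrier of proline and tryptophan, and SLC38A1 and SLC38A2, sodium-coupled importers of glutamine and other neutral amino acids. In this order the genes had 10, 28 and 15 pairs to pick from in sgHNRNPC. On the outermost pair their raw P values by APAlog were 0.230, 0.426 and 0.992. The annotated distal ends of these 3 genes are shown because each formed one side of the pair with the lowest P value.
SLC36A4 ENST00000326402.9: ctgaattttcAATAAAatattttgcttgca
SLC38A1 ENST00000398637.10: ttaaacATTAAAaaatgtgaactaaaagta
SLC38A2 ENST00000256689.10: gaactaaAATAAAtacatgcttaatcctga

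Each of these protein-coding ends held a poly(A) signal in its last 30 bases. They lie on the minus strand at position 93144174 of chromosome 11 for SLC36A4, and at 46183063 and 46358188 of chromosome 12 for SLC38A1 and SLC38A2. A run of 5 T (TTTTT, the DNA letters of a uridine run) occurred in the last 100 bases of the SLC36A4 and SLC38A1 ends and not in those of SLC38A2. Such a run stood in 37.8% of the protein-coding SLC ends found and in 31.7% of all protein-coding ends found. The coding ends of SLC48A1 and SLC35F5, also at a raw P value under 0.05 by APAlog in sgHNRNPC, had no such run. The coding end of SLC39A9, which shifted to the proximal site in MDA-LM2, had such a run. No relation to the shifts was tested.

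For SLC36A4 the pair of the second site and this end had a logAPAR of −1.38 ± 0.548 in sgHNRNPC (interval −2.45 to −0.30, raw P value of 0.0119). All 4 pairs that ended on the coding end were negative there, from −0.57 ± 0.595 to −1.62 ± 1.44, and the outermost pair was at −0.76 ± 0.632. In MDA-LM2 the pair with the lowest sgHNRNPC P value was at −0.63 ± 1.62 and the outermost pair of sgHNRNPC at −1.28 ± 1.61. Both intervals include 0. SLC38A2 had the narrowest interval of these genes, at −0.40 ± 0.170 (−0.74 to −0.07, raw P value of 0.0185) between a genomic site and the coding end. The same pair was the most precise of the gene in MDA-LM2 as well, where it gave −0.44 ± 0.308 (raw P value of 0.153). These 2 values differ by far less than their errors.

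The SLC38A2 result depended on which sites were compared, since its outermost pair in sgHNRNPC was at 0.02 ± 1.63. Its most proximal site, the end of ENST00000548870.5, and the genomic site after it gave the same values to 9 decimals against every other site, so that 4 of the 15 SLC38A2 pairs repeat another pair. Such repeats occurred in 5 genes of the sgHNRNPC table, of which SLC38A2 was the one SLC gene. The pair at −0.40 was not among them. SLC38A1 had 9 sites in MDA-LM2 and 8 in sgHNRNPC, the largest number of any SLC gene together with SLC25A36. Of its 28 pairs in sgHNRNPC, 22 were negative and 1 had a raw P value under 0.05 (−0.43 ± 0.211, interval −0.84 to −0.02, raw P value of 0.0415). Of its 36 pairs in MDA-LM2, 19 were negative, and the lowest raw P value was 0.104.

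The arginine and lysine importer SLC7A1 had one of the most precise outermost pairs in MDA-LM2, at −0.32 ± 0.167 (interval −0.65 to 0.01, raw P value of 0.0537). The pair shared by both tables gave 0.05 in sgHNRNPC, and the difference of −0.37 ± 0.289 had a raw P value of 0.202. Other members of the amino acid group were measured loosely. The cystine importer SLC7A11 was at −0.81 ± 1.23 in MDA-LM2 and −1.63 ± 1.73 in sgHNRNPC, and the glutamine importer SLC1A5 was at 0.17 ± 0.892 and 0.58 ± 1.41, and all 4 intervals include 0.

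Sugar carriers had negative outermost values in all 4 genes measured in MDA-LM2 (median −0.90), against 52.3% of all genes. In sgHNRNPC 2 of 4 were negative (median 0.27), against 57.8%. Every one of these outermost intervals includes 0. SLC2A1 and SLC2A3, the main glucose importers of cancer cells, differed in precision. SLC2A1 was at −1.49 ± 1.45 in MDA-LM2 and 0.67 ± 1.52 in sgHNRNPC. SLC2A3, one of the 5 most precise SLC genes in sgHNRNPC, was at −0.19 ± 0.396 and −0.01 ± 0.300. Neither gene had a pair at a raw P value under 0.05.

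Among monocarboxylate carriers, which move lactate and pyruvate with a proton, SLC16A7 had all 6 of its pairs negative in MDA-LM2. The most precise of them joined 2 annotated ends 517 nt apart on the plus strand of chromosome 12, with a logAPAR of −0.67 ± 0.311 (interval −1.28 to −0.06, raw P value of 0.0315). In sgHNRNPC the same pair was at 0.65 ± 1.04. Both ends are shown because this short stretch carried the lowest P value of the gene.
SLC16A7 ENST00000549033.5: aactaacatttaacaagaatcacatctctg
SLC16A7 ENST00000552432.5: gagAATAAAacccaaattcaaaaaaaaaaa

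The proximal SLC16A7 end, at position 59779696, belongs to a transcript annotated for nonsense-mediated decay and held no signal here. The distal one, at position 59780213, is protein-coding, held AATAAA and closed on a run of A, with 4 A in the next 10 genomic bases.

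Zinc transporters of families SLC30 (export from the cytosol) and SLC39 (import into it) had more positive than negative outermost values. In MDA-LM2 3 of 10 were negative (median 0.45), against 52.3% of all genes, and in sgHNRNPC 4 of 11 (median 0.06), against 57.8%. Only SLC39A9 in MDA-LM2 had an outermost interval that excluded 0, so the signs of the others are uncertain. SLC39A9, a ZIP-family zinc importer, had the largest of the MDA-LM2 zinc values at 1.74 ± 0.730 (interval 0.31 to 3.17, raw P value of 0.0171), toward the proximal site. Its 2 sites there were a decay-type end and the coding end, 1839 nt apart on the plus strand of chromosome 14 at positions 69460551 and 69462390. They are shown because, unlike in SLC35E1, each held a poly(A) signal.
SLC39A9 ENST00000628474.2: tttgtcaAATAAAtagcagattgtagtgtc
SLC39A9 ENST00000336643.10: atATTAAAtttttattagtgcataccttaa

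In sgHNRNPC the same SLC39A9 pair had a logAPAR of −0.22 ± 0.511, and the difference between the comparisons was 1.96 ± 0.891 (interval 0.22 to 3.71, raw P value of 0.0276, adjusted P value of 0.999943). SLC39A7, which releases zinc from the endoplasmic reticulum, was among the most precise SLC genes in both tables and lay at 0.02 ± 0.160 in MDA-LM2 and −0.01 ± 0.212 in sgHNRNPC. Its 95% intervals stayed within 0.5 of 0 on either side in both comparisons. SLC39A6, a zinc importer regulated by estrogen in breast cancer, was at 0.50 ± 0.282 in MDA-LM2 (raw P value of 0.0739) and at 0.44 ± 0.437 for the same pair in sgHNRNPC (raw P value of 0.313).

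Carriers of copper, iron, heme and magnesium were negative in 3 of 7 genes in MDA-LM2 and in 4 of 7 in sgHNRNPC. The high-affinity copper importer SLC31A1 gave a pattern that its outermost pair does not show. In MDA-LM2 its outermost pair was at 0.03 ± 0.129, the second most precise of the SLC genes. Its middle site lay 1992 nt from the proximal one. It gave −1.82 ± 0.856 against the proximal site (raw P value of 0.0335) and 1.86 ± 0.853 against the distal site (raw P value of 0.0297). Both values point to relatively more use of the middle site, but they share that site and are not 2 independent measurements. In sgHNRNPC the corresponding pairs were at −0.51 ± 0.963 and 0.81 ± 0.958, with the same signs and intervals that include 0, and the outermost pair was at 0.30 ± 0.227.

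SLC48A1, a heme transporter of endolysosomes, had 2 sites and a logAPAR of −1.10 ± 0.544 in sgHNRNPC (interval −2.16 to −0.03, raw P value of 0.0435), toward the distal, coding end on the plus strand of chromosome 12 at position 47782751. In MDA-LM2 the same pair was at −0.19 ± 0.422. The difference of 0.91 ± 0.688 had a raw P value of 0.185. SLC11A2, known for mRNA ends with and without an iron-responsive element, was at 0.91 ± 1.00 in MDA-LM2 and 0.06 ± 1.04 in sgHNRNPC.

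Ion and bicarbonate exchangers were negative in 4 of 8 genes in MDA-LM2 and 3 of 9 in sgHNRNPC. In APAlog 0 of them had a pair at a raw P value under 0.05, which is little to set against 11.0% and 4.51% of all genes in groups this small. The organellar sodium and potassium proton exchanger SLC9A7, the third SLC gene by number of sites, had 10 pairs in MDA-LM2 that ranged from −1.02 to 0.52 and 28 pairs in sgHNRNPC that ranged from −1.55 to 1.02. Its lowest raw P values were 0.164 and 0.161. Outside these groups, the phosphate importer SLC20A2 had the highest outermost value of any SLC gene in MDA-LM2, at 3.49 ± 1.67 toward the proximal site. Its interval ran from 0.22 to 6.76 and its raw P value was 0.0366. In sgHNRNPC its outermost pair, at −0.44 ± 1.67, joined 2 other sites, so these values do not measure one choice of sites.

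The mitochondrial carriers of family SLC25 exchange metabolites, nucleotides and cofactors across the inner mitochondrial membrane, and 0 of 17 in MDA-LM2 and 0 of 20 in sgHNRNPC had a pair at a raw P value under 0.05 in APAlog. With 11.0% and 4.51% of all genes at that level, few calls could arise in a family of this size, so the counts of 0 are no result about it. Outermost values were negative in 12 of 17 genes in MDA-LM2 (70.6%, Wilson 95% interval 46.9 to 86.7) with a median of −0.21, and in 14 of 20 in sgHNRNPC (70.0%, interval 48.1 to 85.5) with a median of −0.36. Carriers outside SLC25 were negative in 40 of 76 genes in MDA-LM2 (52.6%, interval 41.6 to 63.5; median −0.03) and in 48 of 82 in sgHNRNPC (58.5%, interval 47.7 to 68.6; median −0.13). The intervals of the groups overlap, and they treat genes as independent, which genes measured in the same libraries are not.

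SLC25A37 (mitoferrin-1), which imports iron into mitochondria, was the most precise SLC gene in both tables. Its outermost pair was at −0.20 ± 0.121 in MDA-LM2 (interval −0.44 to 0.04, raw P value of 0.102) and at −0.06 ± 0.0898 in sgHNRNPC (interval −0.23 to 0.12, raw P value of 0.518). Both of these intervals stayed within 0.5 of 0, a limit that holds for the outermost pair and not for every other pair of the gene, such as −0.93 ± 0.642 between the third site and the most distal one in MDA-LM2. SLC25A4, the heart-type ADP/ATP carrier, was at 0.98 ± 0.651 in MDA-LM2 (raw P value of 0.133) for 2 genomic sites 698 nt apart, and the same pair was at 0.62 ± 1.37 in sgHNRNPC. Its outermost pair in sgHNRNPC, which ran on to the end of ENST00000281456.11, was at −0.67 ± 0.707 (raw P value of 0.343). SLC25A13, the aspartate/glutamate carrier citrin, was at 0.02 ± 0.338 and −0.77 ± 0.463 (raw P value of 0.0948), and the difference of 0.80 ± 0.573 had a raw P value of 0.165.

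Of the other SLC25 genes with the lowest P values, those in MDA-LM2 were SLC25A33 (a pyrimidine nucleotide carrier) at 1.40 ± 1.10, SLC25A16 at −1.36 ± 1.22 and the peroxisomal SLC25A17 at −1.14 ± 1.05. In sgHNRNPC they were SLC25A15 (the ornithine carrier) at −0.59 ± 0.629, SLC25A26 (the S-adenosylmethionine carrier) at 0.22 ± 0.261 and SLC25A21 at −2.26 ± 2.65. SLC25A36, with 8 sites in MDA-LM2 and 9 in sgHNRNPC, had 8 negative pairs of 28 in MDA-LM2 and 22 of 36 in sgHNRNPC, with the lowest raw P values at 0.0875 and 0.506.

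Over all classes together, the outermost pair was negative in 55 of 99 SLC genes in MDA-LM2 (55.6%, interval 45.7 to 65.0) with a median logAPAR of −0.14, against 52.3% and −0.03 for all genes. In sgHNRNPC it was negative in 65 of 107 (60.7%, interval 51.3 to 69.5) with a median of −0.14, against 57.8% and −0.11 for all genes. These intervals also treat genes of the same libraries as independent. Centred on the median of all genes, the shares were 52.5% in MDA-LM2 and 53.3% in sgHNRNPC. Plasma membrane families were negative in 25 of 51 genes in MDA-LM2 (median 0.02) and in 31 of 51 in sgHNRNPC (median −0.13). Organelle families were negative in 15 of 25 (median −0.16) and in 17 of 31 (median −0.06). The MDA-LM2 direction did not hold among SLC genes with only 2 sites, which were negative in 23 of 54 (median 0.19), while 2-site genes as a whole were negative in 52.2%. The 95% interval included 0 in 95 of 99 SLC genes in MDA-LM2 and in 104 of the 106 in sgHNRNPC for which an SE could be derived, and it stayed within 0.5 of 0 in only 4 and 2 genes.

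**Figure D3:**
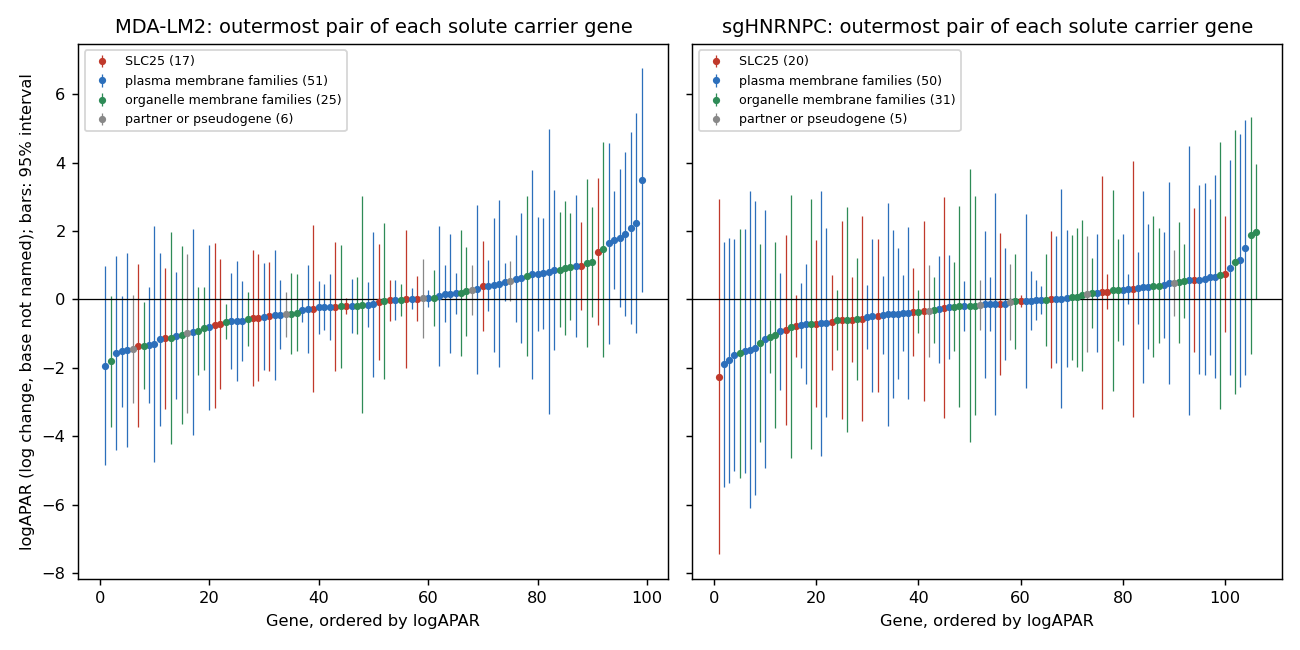
LogAPAR of the outermost pair of sites of each SLC gene, ordered along the x axis within each comparison, with 95% intervals (SLC10A5, at 0 with no interval, is left out of the sgHNRNPC panel). Values run from −1.94 to 3.49 in MDA-LM2 and from −2.26 to 1.98 in sgHNRNPC, and most intervals cross 0 in every class.

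Of the 84 SLC genes in both tables, the outermost pair was negative in both comparisons in 34 (40.5%, against 31.1% of all genes) and positive in both in 17 (20.2%, against 20.3% of all genes). It was negative in MDA-LM2 alone in 16 and in sgHNRNPC alone in 17. The outermost pair joined the same 2 sites in both tables in 57 of the 84 genes (67.9%, against 72.4% of all genes). Among these 57 it was negative in both in 26 (45.6%, against 31.8% of all such genes) and positive in both in 11 (19.3%, against 20.1%). The plasma membrane families gave 17 of 40 negative in both, the organelle families 9 of 24 and SLC25 6 of 15. Of 263 SLC pairs with the same 2 sites in both tables, 161 (61.2%, against 51.2% of all shared pairs) had the same sign. These pairs come from 81 genes and share sites, and 0 of them had a raw P value under 0.05 in APAlog in both comparisons. Of all 21293 shared pairs 51 did (0.240%), a share at which fewer than 1 of 263 pairs would pass. For the difference between the comparisons, 1 SLC pair (SLC35E1) had a raw P value under 0.01, where 0.385% of all pairs did, and 3 (1.14%) had one under 0.05, where 1.97% did. After Benjamini–Hochberg adjustment of this normal test, 0 SLC pairs differed.

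**Figure D4:**
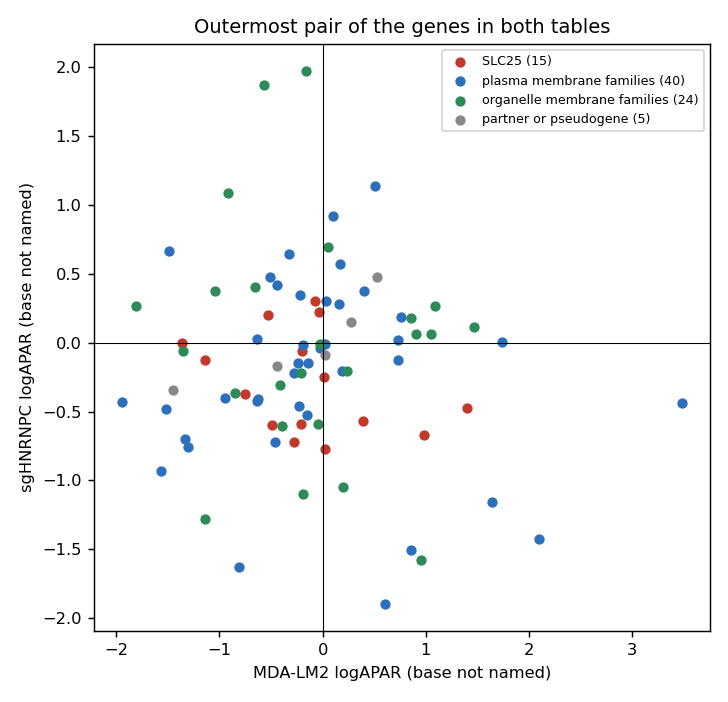
Outermost logAPAR in MDA-LM2 (x axis) and sgHNRNPC (y axis) for the 84 SLC genes in both tables, coloured by class; the pair joins the same 2 sites in 57 of them. The lower left quadrant, negative in both, holds 34 genes and the upper right, positive in both, holds 17.

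Poly(A) signals were counted at the annotated ends of SLC genes. Of 186 transcript ends named for SLC genes, 168 were found in GENCODE 44, and 92 of these (54.8%, against 47.7% of all ends found) held AATAAA or ATTAAA in the last 40 bases of the transcript strand. Among protein-coding transcripts it was 78 of 111 (70.3%, against 59.9%), and among other transcripts 14 of 57 (24.6%, against 25.3%). A TTTTT run stood in the last 100 bases of 56 ends (33.3%, against 27.2%). At least 7 A in the 10 genomic bases after the end were found for 8 ends (4.76%, against 5.47%). Where a pair joined 2 annotated ends, the signal was on the distal end more often than on the proximal one, at 76.7% against 14.0% of the 43 SLC pairs in MDA-LM2 and 79.2% against 15.1% of the 53 in sgHNRNPC. All genes showed the same pattern, at 59.7% against 11.0% and 62.1% against 12.8%. The paired ends of SLC genes lay a median of 4211 nt and 2726 nt apart in the 2 tables, against 7418 nt and 5299 nt for all genes. These shares describe the annotated windows, and no test was made of them.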

How the data were processed

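The authors sequenced 8 QuantSeq 3′-end libraries, 2 in each of 4 groups, and counted reads at poly(A) sites, per the labels with UMI-tools and Salmon 0.14.1 on hg38. They fitted APAlog, a multinomial logistic regression, to every pair of sites of a gene. The deposited tables give, for each pair, logAPAR, its raw p-value and its adjusted p-value. The latter was recomputed for MDA-LM2, where it is the Benjamini–Hochberg value within that table. For sgHNRNPC it was used as deposited. These are the authors' comparison columns, used because no single-sample values accompany them here.

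The implied SE is the absolute logAPAR divided by the normal quantile of the raw p-value, and 95% intervals use 1.96 SE. A logAPAR below 1e-09 in size was set to 0. Comparisons were set against each other by a two-sided normal test of the difference, adjusted over all 21293 shared pairs, a calculation that was tested on simulated data. Differences in logAPAR between comparisons assume that both used the same logarithm. A gene counted as called when its pair with the lowest raw p-value was under 0.01, and the outermost pair joined its most proximal and most distal sites. Named genes were those at a raw p-value under 0.01, those with the same pair under 0.05 and of the same sign in both tables (none), the 5 most precise outermost pairs and the 5 SLC25 genes with the lowest outermost p-value in each table, and the 3 genes with the most sites. Others were picked after their values were seen. The members, lists and rules were chosen with earlier results of these data known.

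Of 13046 transcript ends named in the tables, 11678 (89.5%) were found by identifier and version in GENCODE 44 (GRCh38). Genomic positions in the tables did not match GRCh38 and were used only for distances within a gene. No sequence from chromosome 8 is shown. Python 3.11.15, pandas 2.3.3 and SciPy 1.17.1 were used. Alternatives were other thresholds, other choices of pair, kinds of site, precision limits and centring.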

Additional observations from a re-analysis of the deposited data

Results flagged for a closer look

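SLC35E1 drew attention because the same pair of sites, the decay-type end and the coding end, moved differently in the 2 comparisons. The logAPAR was −1.06 in MDA-LM2 and 0.24 in sgHNRNPC, a difference of −1.30 ± 0.469 (SE). The normal test of the difference gave a raw P value of 0.00554 and, over all shared pairs, an adjusted P value of 0.999943 (Benjamini–Hochberg), so the result fails the correction. Among all shared pairs 0.385% had a raw P value under 0.01. How many single samples show the direction cannot be given from pooled values.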

How the results depend on the processing

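No paired analysis was possible because values of single samples were not among those analysed here, and for the same reason neither a replicate block nor a fit that leaves out 1 replicate was run. The count of SLC genes called in MDA-LM2 (1 at a raw P value under 0.01) became 6 at a raw P value under 0.05. It became 0 under 0.001, 0 on outermost pairs, 0 at an adjusted P value under 0.1 and 0 on pairs of 2 genomic sites. It stayed at 1 with an absolute logAPAR above 0.5 and on pairs of 2 transcript ends. In sgHNRNPC the count was 0 as reported and under every alternative except a raw P value under 0.05, where it was 5. The number of SLC pairs that differed between the comparisons was 0, stayed 0 with z-scores rescaled to unit spread and on outermost pairs, and was 1 at a raw P value under 0.01. The spread of z-scores over all pairs was 0.986 in MDA-LM2 and 0.736 in sgHNRNPC, where a spread of 1 would be that of the normal distribution, so raw P values in sgHNRNPC ran high as a whole.

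The share of SLC genes with a negative value ranged from 52.5% to 59.7% in MDA-LM2 and from 53.3% to 66.0% in sgHNRNPC over the alternatives planned, under which every median kept its sign. An alternative chosen after seeing the data, SLC genes with 2 sites only, moved MDA-LM2 to a share of 42.6% and turned its median to 0.19, while sgHNRNPC gave 63.2% and −0.19. The cause was not tested. Centring on the median of all genes gave a share of 52.5% and 53.3% and medians of −0.11 and −0.04. SLC38A2 in sgHNRNPC reversed from −0.40 to 0.017 when its outermost pair replaced the pair with the lowest P value. Depth was unknown, and the interval of the median SLC gene reached 1.70 to either side in MDA-LM2 and 2.06 in sgHNRNPC.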
